A study of Oryza sativa with 12 samples.

Results

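The auxin response genes of rice leaf were followed on polysomes, in control and drought plants of the cultivars APO and IR64. They were taken as every annotated nuclear gene whose symbol in the deposited tables names an Aux/IAA, SAUR, GH3 or ARF member with the rice prefix Os. This gave 105 of 38978 annotated genes, namely 29 Aux/IAA, 46 SAUR, 7 GH3 and 23 ARF genes. The choice used names only and no measured value. Each of the 4 groups (APO control, APO drought, IR64 control and IR64 drought) held 3 libraries of polysomal RNA, extracted from leaf with TRIzol. The labels give no plant age and do not say whether the 3 libraries are separate plants, so p-values measure only the spread between these libraries. They describe the stress as 50% drought. No total RNA enters the values, so a change in transcript amount and a change in polysome loading cannot be told apart.

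In plants, auxin binds receptors of the TIR1/AFB family, which mark the Aux/IAA repressors for degradation. The Aux/IAA proteins otherwise hold back the ARF transcription factors, which bind auxin response elements in promoters. Aux/IAA, SAUR and GH3 genes are classical early auxin-induced genes. Small auxin up RNAs (SAUR) encode short proteins, many of which promote cell expansion, and GH3 enzymes couple amino acids to auxin or to jasmonate and so adjust the free hormone.

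Levels are given as TPM, a length-corrected abundance, rescaled to sum to 1000000 over the 37849 nuclear loci of each library, because the deposited TPM also cover rRNA and organelle genes. Nuclear loci held 1.21 to 83.3% of the deposited TPM. The library labelled APO drought 1 (1.21%) and APO control 3 (5.04%) lay below a minimum of 10% and were left out of the tests, which leaves 2 APO libraries in each group and 3 IR64 libraries in each group. The library labelled APO drought 1 had 9976 nuclear loci above 0, against 15357 to 31980 in the other 11 libraries. The library also went against its label. For this, genes of 1 cultivar were picked from the 10 libraries tested, at 8 TPM or more throughout that cultivar and at least 8 times the highest value in the other. Above 1 TPM it held 0 of the 17 genes typical of APO and 12 of the 17 typical of IR64, while APO control 3 had 17 of 17 and 10 of 17. Each main result below is therefore given without these 2 libraries and set beside the fit of all 12. In the leaf marker list, 9 to 11 of 11 photosynthetic genes were above 0 in every library. Their summed level was 1603 and 1815 TPM in APO drought 3 and 2, 13852 in the one labelled APO drought 1, and 9432.5 to 33572.5 in the other 9. Root markers (RCc2, RCc3) summed to 28.7 TPM in APO control 3, to 5.05 in APO drought 2 and to at most 1.36 elsewhere. Shoot meristem markers (OSH1, OSH6, OSH15, OsH43) summed to 30.4 TPM in APO control 3, to 5.29 in APO drought 2 and to at most 1.00 elsewhere. In APO drought 2 only RCc3, OSH1 and OSH6 of these were above 0, whereas in APO drought 3 all of them were.

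The ARF and Aux/IAA families were the well-measured ones, and most SAUR and GH3 genes were near the lower limit. Of the 23 ARF genes, 15 stayed at 1 TPM or more in all 10 libraries, as did 12 of 29 Aux/IAA, 7 of 46 SAUR and 0 of 7 GH3 genes. The median member had a mean of 13.4 TPM among ARF genes, 3.41 among Aux/IAA genes, 1.16 among GH3 genes and 0.945 among SAUR genes. OsARF4 (156 TPM), OsIAA17 (136 TPM) and OsSAUR56 (103 TPM) had the highest means of their families, and the top GH3 gene, OsGH3-7, reached 3.30 TPM. The leading pair of members carried 37.1% of the Aux/IAA sum (OsIAA17 and OsIAA13), 44.2% of the ARF sum (OsARF4 and OsARF1), 50.2% of the SAUR sum (OsSAUR56 and OsSAUR11) and 54.8% of the GH3 sum (OsGH3-7 and OsGH3-9). All but 1 member, OsIAA28, were above 0 in at least 1 of the 10 libraries, and OsIAA28 was listed at 0 in all 12. The minimum for testing, a mean of 1 TPM over 10 libraries, was met by 65 members (18 Aux/IAA, 22 SAUR, 5 GH3 and 20 ARF), which were tested with 22812 genes in all. Members that passed this filter through 1 high group had to differ, so counts over those tested are no count over the family.

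**Figure D1:**
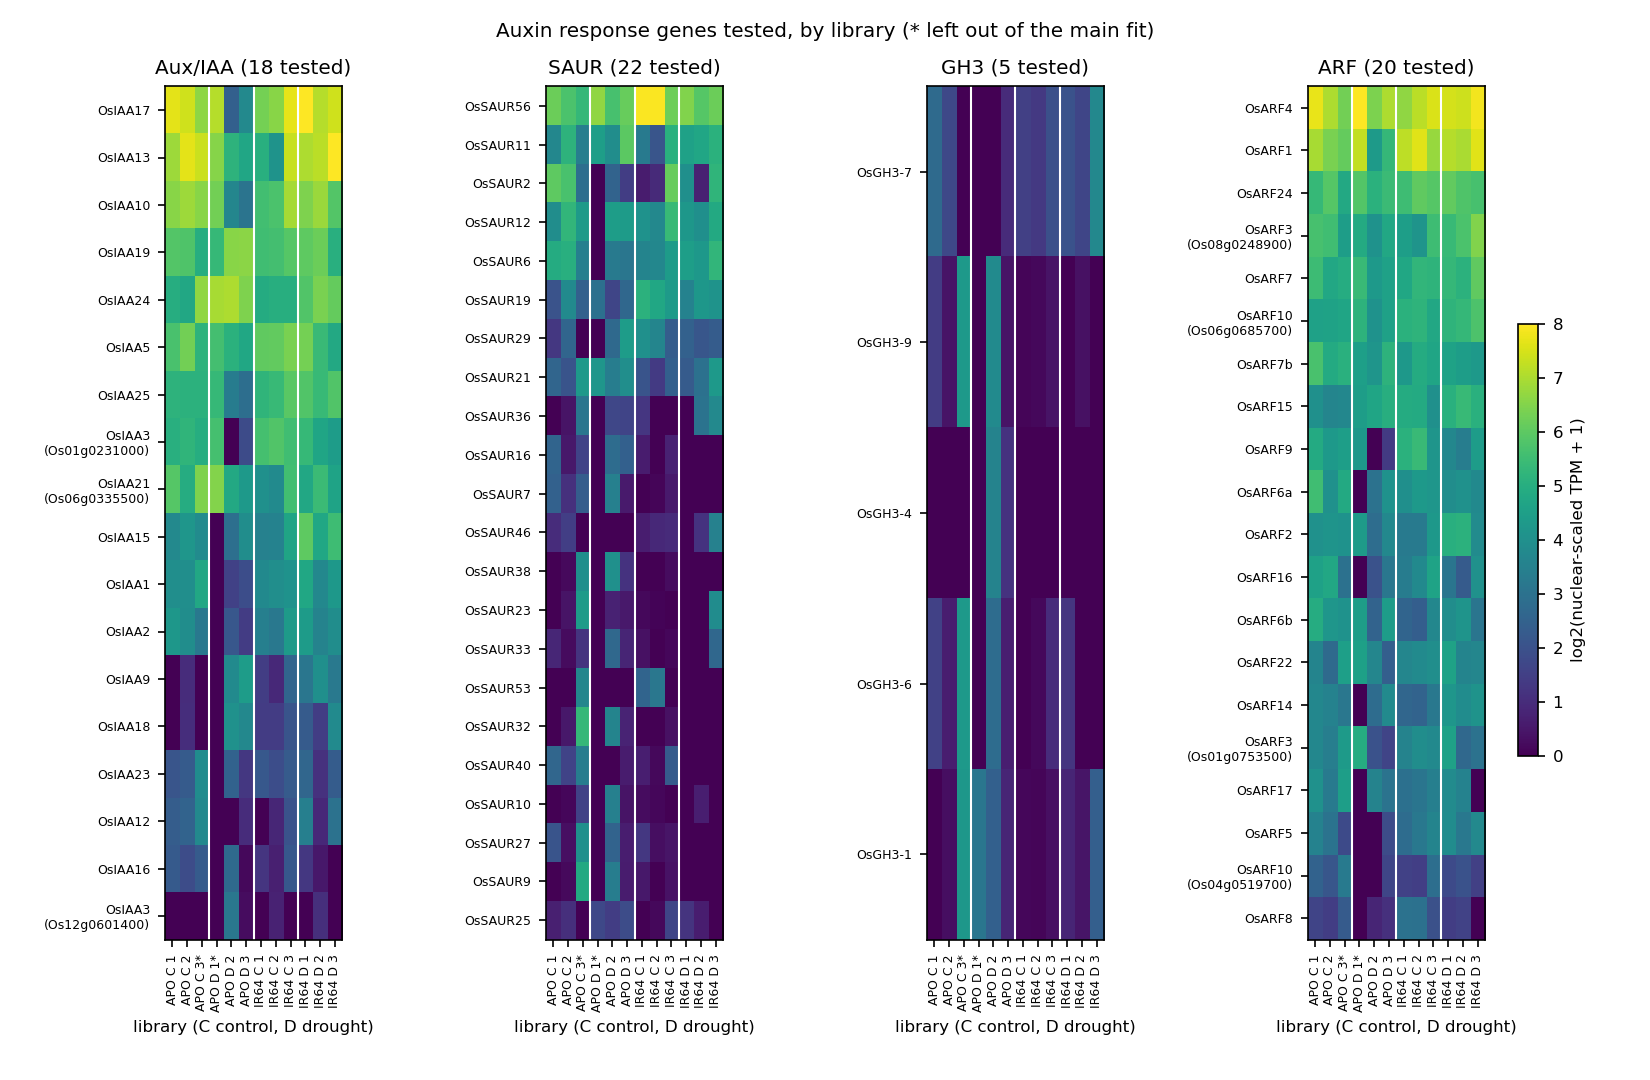
Colours give log2(nuclear-scaled TPM + 1) of the 65 members tested, by family (rows, ordered by mean level) and library (columns; C control, D drought; an asterisk marks the 2 libraries left out of the tests). The upper Aux/IAA rows and most ARF rows were above 0 in nearly all libraries, whereas many of the lower SAUR rows were highest in APO control 3 or APO drought 2.

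Many of the weak members were highest in the 2 libraries with the highest sums of root and meristem markers. Of the 105 members, 35 had their highest value of the 12 libraries in APO control 3 and 18 had it in APO drought 2. For SAUR genes these numbers were 20 and 10 of 46, and for GH3 genes 4 and 1 of 7. The share of all nuclear loci with their highest value in these libraries was not counted, so the numbers show no trait of the members. APO control 3 and APO drought 2 had 5.04% and 13.3% of their deposited TPM on nuclear loci. OsSAUR51, for example, stood at 60.0 TPM in APO control 3 and at 0 to 1.24 TPM in the other 11 libraries. The part of other tissue in these values was not tested. In bulk leaf RNA, fewer cells of a type and less RNA per cell cannot be told apart.

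SAUR genes also lay next to each other, which the choice by name did not use. Within 20000 bases of another member of the family were 21 of 46 SAUR, 5 of 29 Aux/IAA, 2 of 7 GH3 and 0 of 23 ARF genes. The longest run was 8 SAUR genes on chromosome 9 between 21568697 and 21609952 (OsSAUR40, OsSAUR41, OsSAUR45, OsSAUR46, OsSAUR51, OsSAUR53, OsSAUR54 and OsSAUR55), in the coordinates of the deposited tables, whose genome build is not given in the sources used here. Their summed level was 103 TPM in APO control 3, 0 in both IR64 drought 1 and the library labelled APO drought 1, and 1.95 to 10.3 TPM in the other 9 libraries. Of these 8 genes 3 could be tested. Reads from near-identical SAUR copies could be split between them by the counting, and whether they were was not tested. OsSAUR34 and OsSAUR35, 37821 bases apart and so in no run, had closely similar values, both at 1.99 TPM in APO control 1 and at 7.78 and 7.67 TPM in APO control 3.

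In APO, drought was tested on 2 control and 2 drought libraries. Of the 18 Aux/IAA genes tested, 6 fell and 3 rose, and the most abundant of them, OsIAA17, was among those that fell. Among the 65 members tested, 13 were called at an adjusted p below 0.05, 4 higher and 9 lower. Over all 22812 genes 14.4% were called, with 6.8% higher and 7.6% lower. Of the 4 higher members, OsGH3-4 met the minimum for testing only through the APO drought group. Of the 13 called members, 9 were Aux/IAA genes (3 higher and 6 lower of 18 tested), 2 ARF genes (lower, of 20), 1 a SAUR gene (lower, of 22) and 1 a GH3 gene (higher, of 5). Differences are on the log2(TPM + 1) scale, which understates the change of low genes, and each SE is limma's, from a spread shared by the 4 groups.

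OsIAA17 (Os05g0230700, chromosome 5, 7950915 to 7954374) was at 205 and 171 TPM in APO control 1 and 2 and at 4.44 and 12.6 TPM in APO drought 2 and 3. The APO groups did not overlap, and OsIAA17 fell by 4.45 ± 0.57 on the log2 scale (SE; adjusted p = 0.000847). It was the most abundant Aux/IAA gene in APO control 1, whereas in APO drought 2, 8 others of the 29 members were at 10 TPM or more. The library labelled APO drought 1 stood at 138 TPM and APO control 3 at 99.5 TPM, so that with these 2 libraries the groups overlapped.

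OsIAA3 at locus Os01g0231000 (chromosome 1, 7249771 to 7254629; the symbol is also carried by Os12g0601400) went from 31.9 and 36.3 TPM in control to 0 and 2.53 TPM in drought. It fell by 4.22 ± 0.59 on the log2 scale (adjusted p = 0.00138), and the groups did not overlap. OsIAA10 (Os02g0817600, chromosome 2, 35073371 to 35075799) went from 93.6 and 113 TPM to 11.7 and 7.47 TPM and fell by 3.32 ± 0.52 (adjusted p = 0.00229). High values of both genes came also from the library labelled APO drought 1, with 48.7 TPM for this OsIAA3 locus and 77.1 TPM for OsIAA10. OsIAA17, OsIAA3 (Os01g0231000) and OsIAA10 passed the test in all 10 fits that left out 1 library in turn.

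The other 3 Aux/IAA genes that fell had smaller differences. OsIAA25 (Os08g0109400, chromosome 8, 468151 to 473510) was at 35.4 and 33.9 TPM in control and at 9.30 and 6.37 TPM in drought, and fell by 2.03 ± 0.41 (adjusted p = 0.00948). OsIAA1 (Os01g0178500, chromosome 1, 4073916 to 4076438) was at 14.6 and 14.4 TPM against 1.92 and 2.67 TPM, and fell by 2.24 ± 0.52 (adjusted p = 0.0174). OsIAA2 (Os01g0190300, chromosome 1, 4816831 to 4818958) was at 17.9 and 14.3 TPM against 3.49 and 1.70 TPM, and fell by 2.29 ± 0.60 (adjusted p = 0.0282). In each of the 3 the lower control library was at least 3 times the higher drought library. In the left-out library labelled APO drought 1, OsIAA1 and OsIAA2 were listed at 0, below the controls, while OsIAA25 stood at 39.7 TPM.

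Against this fall, 3 Aux/IAA genes rose in APO drought. OsIAA24 (Os07g0182400, chromosome 7, 4355211 to 4356572) was at 30.3 and 26.9 TPM in control and at 129 and 85.9 TPM in drought, a rise of 1.85 ± 0.37 (adjusted p = 0.00863). Among the 29 members, OsIAA24 led in APO drought 2, with 30.9% of the family's sum, whereas OsIAA19 (96.95 TPM) led in APO drought 3. OsIAA19 was named after its values were seen, and its difference of 0.77 ± 0.42 did not pass the test (adjusted p = 0.245). IAA6, an Aux/IAA gene whose symbol lacks the Os prefix, was above both in these libraries, at 171 and 112 TPM. In control the leading genes were OsIAA17 in APO control 1 and OsIAA13 in APO control 2. OsIAA9 (Os02g0805100, chromosome 2, 34348582 to 34349843) was at 0 and 1.00 TPM in control and at 13.1 and 20.6 TPM in drought, a rise of 3.63 ± 0.75 (adjusted p = 0.0103). OsIAA18 (Os05g0523300, chromosome 5, 26052916 to 26055714) was at 0 and 1.06 TPM against 15.6 and 12.4 TPM, a rise of 3.38 ± 0.83 (adjusted p = 0.0228). In all 3 the APO groups tested stood apart. With 2 libraries against 2 this is common, and holds for 25.7% of all genes as higher and for 37.8% as lower in drought. Both left-out libraries listed OsIAA9 and OsIAA18 at 0, whereas OsIAA24 was high in both, at 101 and 122 TPM.

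**Figure D2:**
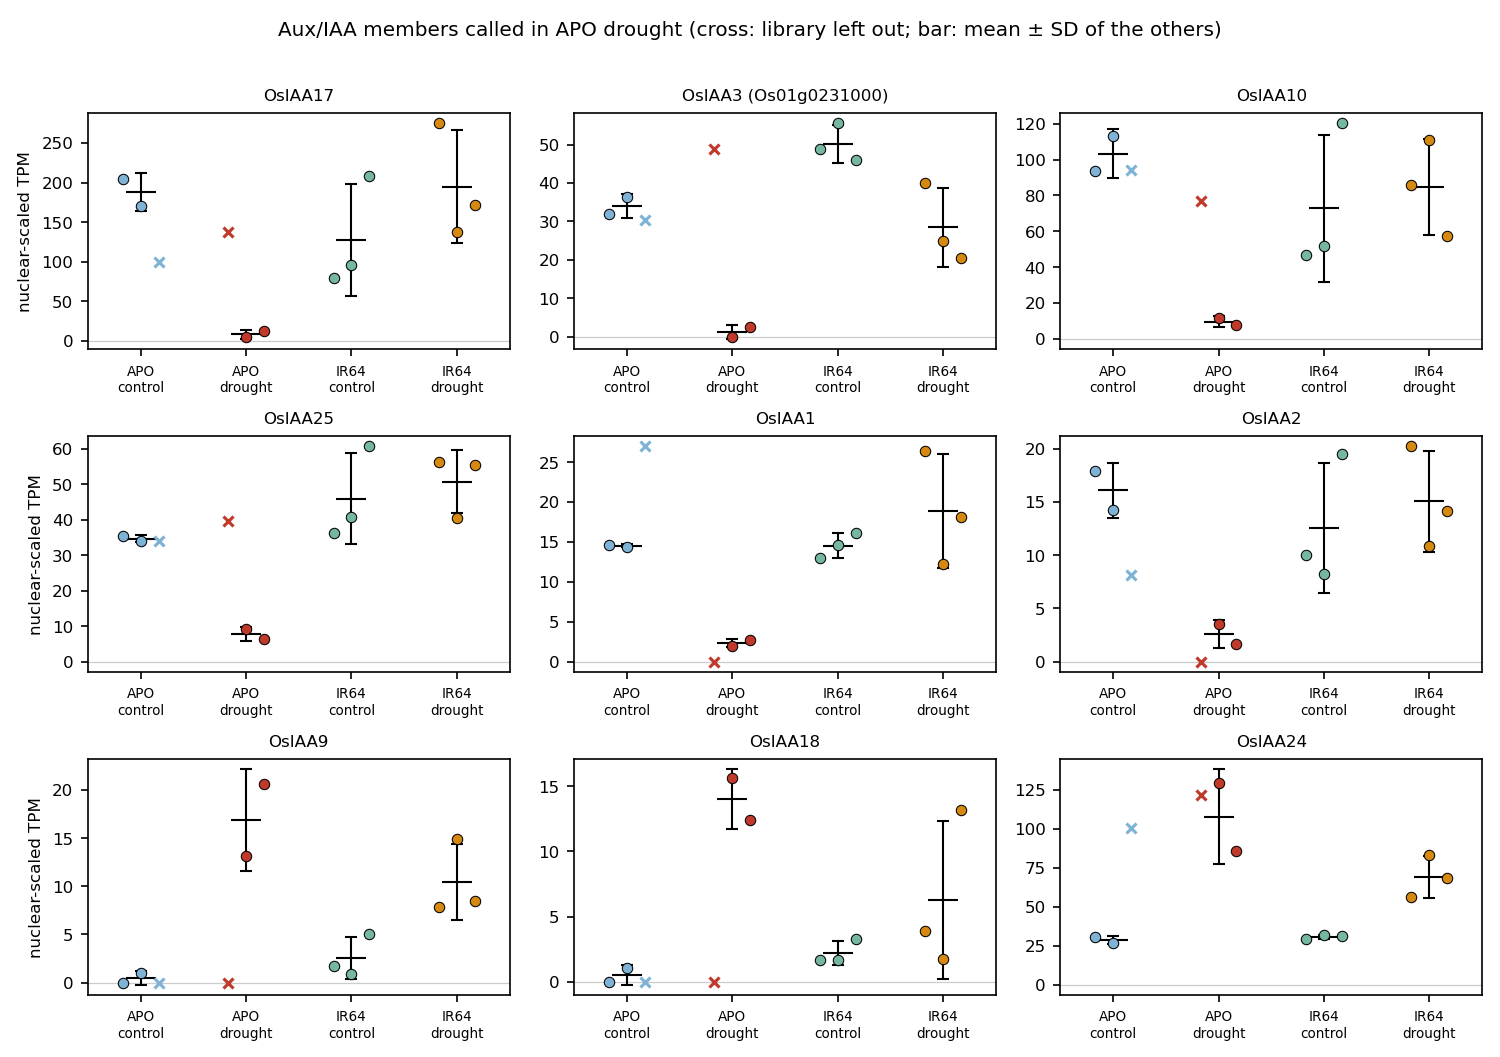
Each panel shows nuclear-scaled TPM of 1 Aux/IAA gene by library in the 4 groups, with the mean and SD of the libraries tested (n = 2 for APO, n = 3 for IR64) and crosses for the 2 libraries left out. OsIAA17 sits at 171 and 205 TPM in APO control and at 4.44 and 12.6 TPM in APO drought, with the cross of the library labelled APO drought 1 at 138 TPM.

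OsIAA13 (Os03g0742900, chromosome 3, 30480720 to 30483289), the second most abundant Aux/IAA gene, was at 112 and 202 TPM in APO control and at 35.4 and 25.5 TPM in APO drought. The groups did not overlap, but its difference of -2.29 ± 0.84 did not pass the test (adjusted p = 0.0962). An annotated gene on the opposite strand overlaps OsIAA13, and whether the counting used strand is not stated. Summed over the 29 genes, Aux/IAA transcripts took 739 and 807 TPM in APO control and 417 and 343 TPM in APO drought. APO control 3 was at 817 TPM and the library labelled APO drought 1 at 697 TPM, both on the control side. IAA6, which lacks the Os prefix and so is outside this sum, went the other way. It was at 65.7 and 47.9 TPM in APO control and at 171 and 112 TPM in APO drought. Its difference of 1.29 ± 0.87 did not pass the test (adjusted p = 0.346).

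In the ARF family 2 of 20 genes were called in APO drought, both lower. OsARF9 (Os04g0442000, chromosome 4, 22006405 to 22012018) was at 28.7 and 18.8 TPM in control and at 0 and 1.54 TPM in drought, and fell by 3.92 ± 0.66 (adjusted p = 0.00362). It passed the test in all 10 fits that left out 1 library. A gene on the opposite strand overlaps it. OsARF1 (Os11g0523800, chromosome 11, 18935399 to 18941686), the second most abundant ARF gene, was at 124 and 82.7 TPM against 19.7 and 39.6 TPM, and fell by 1.82 ± 0.46 (adjusted p = 0.0258). The library labelled APO drought 1 stood at 17.8 TPM for OsARF9 and 153 TPM for OsARF1, so that for OsARF1 it was the highest of the 6 APO libraries. OsARF4 (Os01g0927600, chromosome 1, 40695664 to 40700914) was at 213 and 129 TPM in control and 84.6 and 128 TPM in drought, and its difference of -0.66 ± 0.43 did not pass the test (adjusted p = 0.325). The ARF sum was 772 and 548 TPM in control and 287 and 441 TPM in drought. With the left-out libraries the order of the sums was lost, since the library labelled APO drought 1 was the highest at 795 TPM and APO control 3 stood at 495 TPM.

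Among SAUR genes 1 of 22 was called (4.55%, beside 14.4% of all genes). OsSAUR6 (Os02g0167600, chromosome 2, 3655252 to 3656179) was at 29.3 and 31.98 TPM in control and at 8.88 and 7.84 TPM in drought, and fell by 1.76 ± 0.50 (adjusted p = 0.0399). The groups did not overlap, and APO control 3 (10.03 TPM) lay close to the drought libraries. OsSAUR6 passed the test in 3 of the 10 fits that left out 1 library. The family's leading gene, OsSAUR56 (Os10g0510500, chromosome 10, 19631259 to 19632262), was at 72.8 and 51.7 TPM against 50.5 and 69.5 TPM, with overlapping groups (difference -0.05 ± 0.56, adjusted p = 0.967). OsSAUR11 (Os02g0643800, chromosome 2, 25878905 to 25879875) was at 11.9 and 35.2 TPM against 14.3 and 63.0 TPM, and the groups overlapped as well (difference 0.53 ± 0.94, adjusted p = 0.739). The SAUR sum was 242 and 245 TPM in control and 232 and 236 TPM in drought, with APO control 3 at 492 TPM.

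The 7 GH3 members were at low levels in most libraries. GH3-2, a relative whose symbol lacks the Os prefix, was higher, at 62.3 and 43.8 TPM in IR64 control 1 and 2. OsGH3-4 (Os05g0500900, chromosome 5, 24643665 to 24645918) was the member called (adjusted p = 0.0457). It was at 10.8 TPM in APO drought 2 and 1.27 TPM in APO drought 3 and was listed at 0 in the other 10 libraries, so no fold is given. It met the minimum for testing only through the APO drought group, so its call is no support for a rise. It passed the test in 1 of the 10 fits that left out 1 library (without APO drought 3), and a gene on the opposite strand overlaps it. In APO drought 2 the root and meristem markers summed to 5.05 and 5.29 TPM, from RCc3 alone and from OSH1 and OSH6. The part of other tissue in the OsGH3-4 value was not tested. OsGH3-7 (Os06g0499500, chromosome 6, 17586900 to 17590657) was at 5.82 and 2.36 TPM in control and at 0 and 0.977 TPM in drought (difference -1.77 ± 0.83, adjusted p = 0.178). OsGH3-9 (Os07g0576500, chromosome 7, 23325199 to 23327227) was at 1.70 and 0.336 TPM against 13.1 and 0.334 TPM, and the high value was again that of APO drought 2 (difference 1.19 ± 0.92, adjusted p = 0.409).

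**Figure D3:**
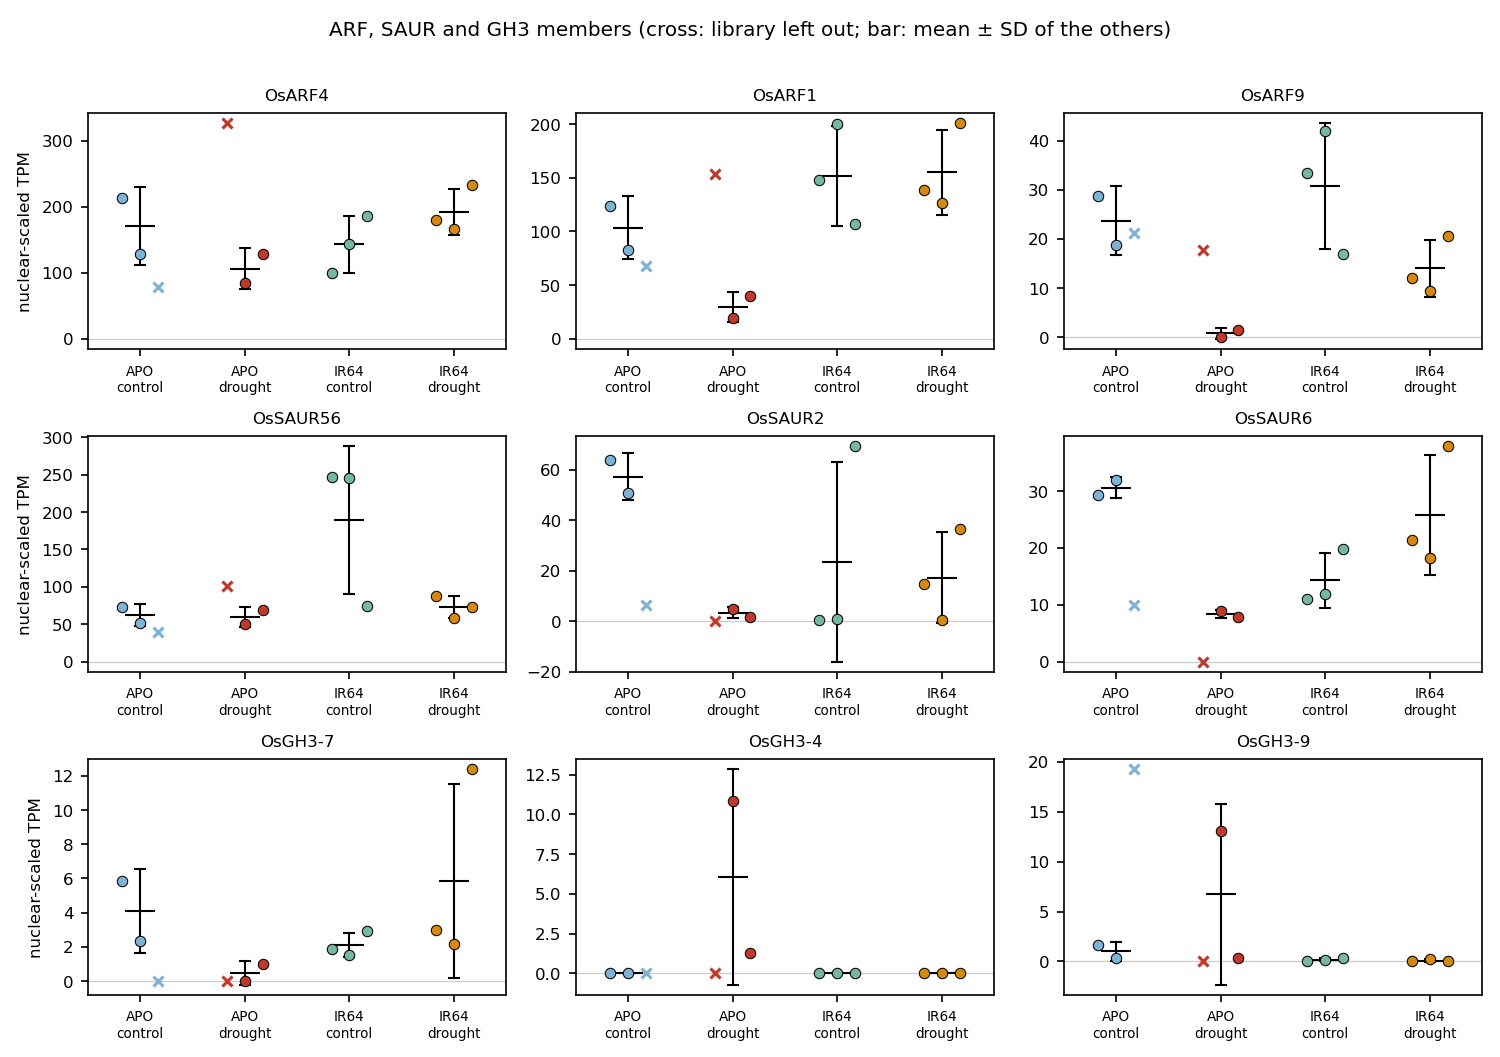
Nuclear-scaled TPM of 9 ARF, SAUR and GH3 genes by library in the 4 groups, with the mean and SD of the libraries tested (n = 2 for APO, n = 3 for IR64) and crosses for the 2 libraries left out. OsARF1 is at 19.7 and 39.6 TPM in APO drought with the left-out library at 153 TPM, and OsSAUR56 is at 246 TPM in IR64 control 1 and 2 and at 75.1 TPM in IR64 control 3.

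The medians of the families in APO are given as a description only, since they were not tested against each other and cover the members that passed the filter. The median difference was -0.96 for Aux/IAA, -0.75 for ARF, 0.49 for SAUR and 1.19 for GH3, beside -0.24 over all genes tested. The GH3 median is the value of OsGH3-9, high in APO drought 2, and it ran from -1.28 to 2.29 when 1 library was left out. With median-of-ratios scaling the median over all genes was 0.02, and the family medians were -0.66, -0.45, 0.72 and 1.39. With all 12 libraries the SAUR and GH3 medians turned to -0.63 and -0.83, while the Aux/IAA and ARF medians were -1.39 and -0.73. Without the filter on low values the Aux/IAA median was -0.33.

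The APO calls rest on which libraries enter. With all 12 libraries 1 of 80 members was called, OsIAA1 (lower), beside 3.03% of all genes (2.08% lower). With APO control 3 alone left out limma called none of the 62 members tested, beside 1.79% of all genes, and 17 members had an unadjusted p below 0.05. Counts at an unadjusted p, here and below, lack the share of all genes at that threshold and so show no excess of members. With the library labelled APO drought 1 alone left out 10 members were called, 2 higher and 8 lower, all of them among the 13, beside 11.6% of all genes (4.83% higher and 6.76% lower). Removing APO control 1 from the 10 libraries left 4 calls (4.52% of all genes), removing APO control 2 left 5 (5.01%) and removing APO drought 2 left 6 (5.68%). Of the 10 such fits, those without an IR64 library keep the APO group means, and those without an APO library leave 1 library in a group. The number of fits passed is therefore no measure of how stable an APO call is. Over these fits the difference ran from -2.41 to -2.08 for OsIAA1, -2.66 to -1.92 for OsIAA2 and -2.27 to -1.79 for OsIAA25. It ran from 3.13 to 4.13 for OsIAA9, 2.85 to 3.90 for OsIAA18, 1.56 to 2.14 for OsIAA24 and -2.30 to -1.33 for OsARF1. Photosynthetic markers moved with the APO groups, as 7 of 11 were called lower, at a summed 16881 and 25851 TPM in APO control 1 and 2 against 1815 and 1603 TPM in APO drought 2 and 3. The clock gene CCA1 also differed between the APO groups. It was at 3.44 and 1.63 TPM in APO control 1 and 2 against 82.6 and 55.5 TPM in APO drought 2 and 3. The part of these shifts in the Aux/IAA values was not tested.

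**Figure D4:**
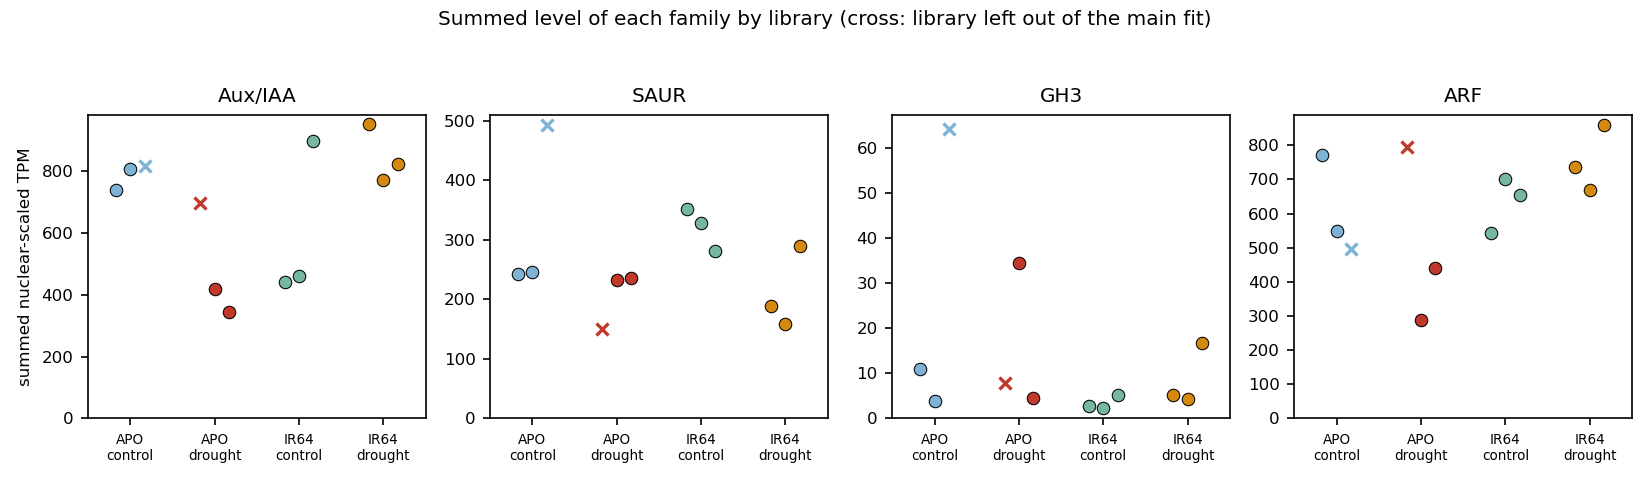
Summed nuclear-scaled TPM of each family by library, in the 4 groups, with crosses for the 2 libraries left out. The Aux/IAA sum is 739 and 807 TPM in APO control and 417 and 343 TPM in APO drought, and the GH3 sum is highest in APO control 3 (64.3 TPM) and APO drought 2 (34.4 TPM).

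In IR64, drought was tested on 3 control and 3 drought libraries, and no member passed the test. The count was 0 of 65, where 1.42% of all genes were called (1.12% higher and 0.307% lower). At an unadjusted p below 0.05 there were 9 members. Over all 12 libraries limma called 0 of 80 members and 2 of 26192 genes. With library weights over all 12 it called 17 of 80, beside 26.4% of all genes. The median differences were 0.30 for Aux/IAA, -0.07 for SAUR, 0.02 for GH3 and 0.09 for ARF, beside 0.16 over all genes. With median-of-ratios scaling the Aux/IAA and ARF medians were -0.12 and -0.43, so their sign depended on the scaling, and the median over all genes was -0.21.

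The Aux/IAA gene with the smallest p in IR64 was OsIAA24, one of those that rose in APO. It was at 29.4, 31.5 and 31.3 TPM in IR64 control and at 56.3, 83.2 and 68.1 TPM in IR64 drought. The 3 drought libraries were all above the 3 controls, as for 11.8% of all genes (8.22% the other way), yet its difference of 1.13 ± 0.30 did not pass the test (adjusted p = 0.102). In deposited TPM the difference of OsIAA24 turned to -0.39. OsIAA9 was at 1.73, 0.912 and 5.05 TPM against 7.87, 14.9 and 8.43 TPM, likewise without overlap (difference 1.80 ± 0.61, adjusted p = 0.168). OsIAA17 was at 79.0, 95.3 and 208 TPM in control and at 275, 138 and 172 TPM in drought, and the groups overlapped (difference 0.68 ± 0.47, adjusted p = 0.475).

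In the other families the smallest p belonged to OsARF14, OsSAUR53 and OsGH3-1. OsARF14 (Os05g0515400, chromosome 5, 25555850 to 25561791) was at 5.20, 4.79 and 8.22 TPM in IR64 control and at 17.3, 13.9 and 16.2 TPM in drought, without overlap (difference 1.27 ± 0.45, adjusted p = 0.176). OsSAUR53 (Os09g0546900, chromosome 9, 21602929 to 21603542) was at 4.98 and 8.03 TPM in IR64 control 1 and 2. It was listed at 0 in IR64 control 3 and in all 3 IR64 drought libraries (adjusted p = 0.193). It met the minimum for testing only through the IR64 control group. OsGH3-1 (Os01g0785400, chromosome 1, 33308448 to 33310933) was at 0.0805 to 0.260 TPM in control and at 0.760, 0.359 and 4.31 TPM in drought (difference 1.02 ± 0.63, adjusted p = 0.414), and it shares bases with a gene on the opposite strand. OsARF4 and OsARF1, the leading ARF genes, had differences of 0.46 ± 0.35 and 0.05 ± 0.38 (adjusted p = 0.525 and 0.961).

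The IR64 controls were not alike. OsSAUR2 was at 0.511 and 0.919 TPM in IR64 control 1 and 2 and at 69.3 TPM in IR64 control 3. OsSAUR56 was at 246 TPM in both IR64 control 1 and 2 and at 75.1 TPM in IR64 control 3, and OsIAA13 at 32.1 and 16.1 TPM against 161 TPM. CCA1, a clock gene whose transcript peaks in the morning, was at 636 and 953 TPM in IR64 control 1 and 2 and at 1.91 TPM in IR64 control 3. OsSAUR2 was named after its values were seen. The part of this difference between libraries in the member values was not tested.

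Without IR64 control 3, 7 of 64 members were called in IR64, 5 higher and 2 lower, where 17.1% of all genes were called (12.5% higher and 4.58% lower). OsIAA13 (2.82 ± 0.42, adjusted p = 0.00209), OsIAA9 (2.27 ± 0.62, adjusted p = 0.0333), OsIAA15 (1.92 ± 0.47, adjusted p = 0.0205) and OsIAA24 (1.14 ± 0.29, adjusted p = 0.0246) were higher in drought. OsARF3 at locus Os08g0248900 was higher too, by 1.55 ± 0.38 (adjusted p = 0.022). OsSAUR56 (-1.76 ± 0.28, adjusted p = 0.00302) and OsSAUR53 (-2.88 ± 0.51, adjusted p = 0.00454) were lower. OsSAUR53 met the minimum for testing only through the IR64 control group, so its call is no support for a difference. These 7 calls rest on 2 control libraries.

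**Figure D5:**
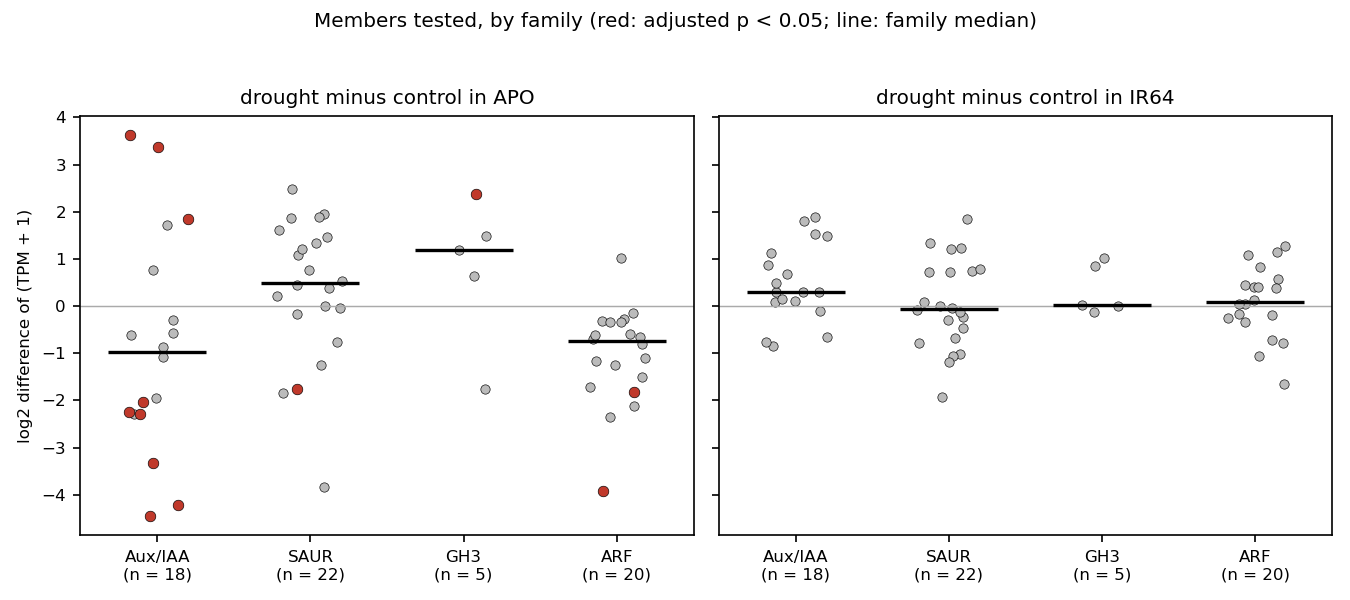
Points give the log2 difference of (TPM + 1), drought minus control, for each of the 65 members tested by family, in APO (left) and IR64 (right), with red for an adjusted p below 0.05 and a line at the family median. In APO 13 points are red, the lowest being OsIAA17 at -4.45, and in IR64 none is.

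The test of the difference between the cultivars' drought responses called 5 members, all lower in APO, where 5.19% of all genes were called and 3.65% lower. The drought groups also differed in 2 drought reference genes. Rab16A was at 44915 and 22006 TPM in APO drought 2 and 3, against 3049 to 5654 TPM in IR64 drought. OsLEA3-1 was at 12705 and 9428 TPM against 770 to 1917 TPM. Whether the stress was equal in the 2 cultivars was not tested. OsIAA17 differed most, at -5.13 ± 0.74 log2 units (adjusted p = 0.00994). OsIAA10 followed at -3.62 ± 0.67 (adjusted p = 0.0196) and OsIAA3 (Os01g0231000) at -3.38 ± 0.77 (adjusted p = 0.0354). OsSAUR6 was at -2.54 ± 0.64 (adjusted p = 0.0482) and OsIAA25 at -2.19 ± 0.53 (adjusted p = 0.0438). In IR64 the control and drought values of OsIAA10 were 46.6, 51.9 and 120 TPM against 85.9, 111 and 57.6 TPM, with overlap, while OsIAA3 (Os01g0231000) was at 48.8, 55.5 and 45.9 TPM against 40.0, 25.0 and 20.5 TPM, so that all 3 drought libraries lay below all 3 controls (difference -0.84 ± 0.48, adjusted p = 0.384). The 3 Aux/IAA genes that rose in APO did not pass this test, OsIAA24 with a difference of 0.72 ± 0.48 (adjusted p = 0.371). With all 12 libraries no member and none of the 26192 genes passed it in limma (0%), although 10 members had an unadjusted p below 0.05. OsIAA3 (Os01g0231000), OsSAUR6 and OsIAA25 lost the call under median-of-ratios scaling, quantile normalization, a pseudocount of 0.1 or no filter, while OsIAA17 and OsIAA10 passed under each. Fits without 1 APO library leave 1 library in an APO group, so their counts show no excess of members. Without APO drought 3 the only APO drought library tested is APO drought 2. Members that met the minimum for testing through that library alone had to differ. The calls of that fit included members higher in APO, unlike the 5 above. Without 1 library the count of members is given with the share of all genes. It was 0 without APO control 1 (0.0663%) or APO control 2 (0.204%), and 1 without APO drought 2 (0.668%), IR64 control 1 (0.944%) or IR64 drought 1 (1.39%). It was 2 without IR64 control 2 (1.84%) or IR64 drought 2 (2.74%) and 3 without IR64 drought 3 (3.08%). Without APO drought 3 it was 14 of 65 (9.42%), and without IR64 control 3 it was 14 of 64, close to the 20.2% of all genes.

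Between the cultivars in control, no member passed the test, where 0.605% of all genes did. At an unadjusted p below 0.05 there were 6 members. Over all 12 libraries limma called 0 of 80 members and 29 of 26192 genes. With library weights over all 12 there were 39 calls among 80 members, beside 48.3% of all genes. Without IR64 control 3 there were 4 calls, where 12.6% of all genes were called (8.91% higher and 3.7% lower). OsSAUR2 and OsIAA13 were higher and OsSAUR56 and OsSAUR53 lower in APO. OsSAUR53 met the minimum for testing only through the IR64 control group, so its call is no support for a difference.

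Between the cultivars in drought, 13 of 65 members were called, 3 higher and 10 lower in APO, where 12.3% of all genes were called (5.66% higher and 6.68% lower). This comparison uses the same APO drought libraries as those above, and the drought reference genes Rab16A and OsLEA3-1 differed between its groups. OsIAA17 was at 4.44 and 12.6 TPM in APO drought against 275, 138 and 172 TPM in IR64 drought (-4.45 ± 0.52, adjusted p = 0.000953). OsIAA3 (Os01g0231000) differed by -3.92 ± 0.54 (adjusted p = 0.00202), OsARF9 by -3.17 ± 0.60 (adjusted p = 0.00884) and OsIAA10 by -3.00 ± 0.47 (adjusted p = 0.00361). OsARF5 (Os02g0141100, chromosome 2, 2207998 to 2214514), which has not been described above, was at 0 and 2.66 TPM against 13.8, 8.22 and 12.5 TPM (-2.68 ± 0.65, adjusted p = 0.0256). For all 5 genes every APO drought library tested was below every IR64 drought library, which holds for 24.2% of all genes.

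The 3 members higher in APO drought were OsSAUR16, OsSAUR38 and OsGH3-4, all listed at 0 in the 3 IR64 drought libraries, so no fold is given. All 3 met the minimum for testing only through the APO drought group, so their calls are no support for a difference. OsSAUR16 (Os03g0660400, chromosome 3, 25893155 to 25893521) was at 6.06 and 4.51 TPM in APO drought (adjusted p = 0.0269) and OsSAUR38 (Os09g0437400, chromosome 9, 16143938 to 16144535) at 15.001 and 1.25 TPM (adjusted p = 0.0403). Both genes were at 0 for the library labelled APO drought 1, and OsSAUR38 was at 14.7 TPM in APO control 3. With all 12 libraries the count between the cultivars in drought was 0 (0.176% of all genes), with 17 members at an unadjusted p below 0.05. Without APO drought 2 or APO drought 3, 1 APO drought library is left, so the counts of these fits show no excess of members. Without APO drought 3, members that met the minimum for testing through APO drought 2 alone had to differ. Leaving out 1 library gave 4 of 52 members without APO drought 2 (3.23% of all genes), 20 of 65 without APO drought 3 (14.6%), 8 of 65 without IR64 control 1 (8.65%) and 7 of 65 without IR64 drought 1 (6.43%).

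Genes on either side of the response were counted from lists of the pathway. In APO drought, 0 of 7 synthesis genes, 4 of 9 transport genes and 0 of 2 receptor genes were called, where 14.4% of all genes were. Of 5 tested genes with a DAO or ILR symbol, 1 was called. In IR64 none of all these genes was called, where 1.42% of all genes tested were. The transport genes that fell were OsPIN5a, of the PIN carrier family (13.9 and 48.7 TPM in APO control, 0 and 1.44 TPM in APO drought; adjusted p = 0.00677), and OsLAX1, of the AUX/LAX influx carriers (15.8 and 10.2 TPM against 0 and 3.30 TPM; adjusted p = 0.034). Those that rose were the PIN-likes OsPILS7a (0.451 and 2.46 TPM against 32.3 and 29.0 TPM; adjusted p = 0.00948) and OsPILS1 (18.6 and 6.76 TPM against 55.0 and 66.4 TPM; adjusted p = 0.0281). OsPIN5a and OsPILS7a also passed with all 12 libraries (adjusted p = 0.00844 and 0.01), the library labelled APO drought 1 being at 0 and 31.0 TPM. With these, OsLAX1 (adjusted p = 0.346) and OsPILS1 (adjusted p = 0.979) lost the call. OsDAO2, named as a dioxygenase that oxidises auxin, was at 194 and 275 TPM in APO control and 60.5 and 75.9 TPM in APO drought (adjusted p = 0.0381, and 0.0597 with all 12 libraries).

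The receptor gene TIR1 was at 50.7 and 30.7 TPM in APO control and at 78.7 and 70.5 TPM in APO drought, with the library labelled APO drought 1 at 65.3 TPM (difference 0.90 ± 0.39, adjusted p = 0.148). In IR64 it was at 41.5, 36.3 and 30.2 TPM against 55.0, 78.5 and 76.9 TPM (0.94 ± 0.32, adjusted p = 0.167). In neither cultivar did the groups overlap, and in neither did the test pass. Of 7 tested relatives of the 4 families whose symbols lack the Os prefix, 1 was called in APO drought. It was ARF16 at locus Os06g0196700, distinct from the OsARF16 locus, with 4.42 and 2.103 TPM in control and 69.2 and 110 TPM in drought, a rise of 4.43 ± 0.60 (adjusted p = 0.00109). The library labelled APO drought 1 listed ARF16 at 0, and the response of ARF16 differed between the cultivars (3.74 ± 0.77, adjusted p = 0.0274). With all 12 libraries both calls of ARF16 were lost (adjusted p = 0.421 in APO and 0.829 for the difference between cultivars). In IR64 it was at 2.59, 2.72 and 2.22 TPM against 3.26, 4.65 and 6.55 TPM.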

How the data were processed

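Polysomal RNA of rice leaf was sequenced in 12 libraries. The submitters' processing notes name HISAT2 2.1.0 and StringTie 1.3.4, with no role or order. The deposited StringTie gene tables give, per the file headers, coverage (a signal of mean read depth per base), FPKM and TPM for each gene. The TPM were used, the FPKM and coverage only for a relative index of depth, which ran from 0.608 to 7.34. Read counts were not used, so the precision set by depth is unknown. Groups came from the labels.

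TPM were rescaled over nuclear loci, and log2(TPM + 1) was fitted on 10 libraries by limma 3.58.1 under R 4.3.3, the trend option on, with 4 group means. Libraries with under 10% nuclear TPM were left out. Genes with a mean of at least 1 were tested, two-sided, with Benjamini-Hochberg adjustment over 22812 genes and a call at adjusted p below 0.05. The fit was tested on simulated data. Members, lists, the left-out libraries and the tests were chosen with earlier results of these data known. Named were all members called in a drought comparison or in the cultivar difference, the 2 most abundant of each family, the smallest p of a family without a call, and up to 5 per direction between cultivars. The pathway lists were trimmed after the tables were opened, and the relatives without the Os prefix were added then. Same-numbered libraries did not deviate together. No protein or promoter sequence was used here.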

Additional observations from a re-analysis of the deposited data

Results flagged for a closer look

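The drought response of 5 members differed between APO and IR64 by the interaction term of the limma fit of 10 libraries, as drought minus control in APO less the same in IR64, on the log2(TPM + 1) scale. The differences were -5.13 for OsIAA17, -3.62 for OsIAA10, -3.38 for OsIAA3 (Os01g0231000), -2.54 for OsSAUR6 and -2.19 for OsIAA25. In APO all 5 were lower in both drought libraries tested than in both controls. With all 12 libraries none of the 5 passed the test. Of the 10 fits that left out 1 library, OsIAA17 passed in 8, OsIAA10 in 5, OsIAA3 (Os01g0231000) in 3, and OsSAUR6 and OsIAA25 in 1 each.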

How the results depend on the processing

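Of the counts of members called over all settings, 77 were within 1.5 times of the main count and 47 were not. Of the family medians, 152 moved by less than the members' spread between libraries and 46 by more. Of the values of the members named in a drought comparison or between cultivars, 727 kept their direction and side of the threshold, 271 lost the call, 16 gained it and 44 turned.

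All 44 belong to differences that were not called. In deposited TPM of 10 or 12 libraries the IR64 differences were -0.11 for OsARF14, -0.39 for OsIAA24, -0.87 for OsIAA17, -0.28 for OsGH3-7, -0.15 for OsSAUR11, -1.10 for OsARF4 and -1.50 for OsARF1. With median-of-ratios scaling of 10 and 12 libraries, OsARF4 in IR64 was at -0.086 and -0.10 and OsARF1 at -0.49 and -0.51. OsARF1 was at -0.18 with quantile normalization, -0.27 with library weights, and from -0.18 to 0.27 without 1 library, and OsGH3-9 in IR64 was at 0.28 and 0.073 with quantile normalization and library weights. In APO, all 12 libraries, with or without the replicate block, put OsARF4 at 0.24, OsGH3-9 at -0.65 and OsSAUR56 at 0.42, and with median-of-ratios scaling at 0.38, -0.42 and 0.55. OsSAUR56 in APO was also at 0.26 with median-of-ratios scaling of 10 libraries, 0.031 with quantile normalization, 0.35 with the replicate block, 0.21 and 0.16 with APO control 3 or the library labelled APO drought 1 alone left out, and from -0.29 to 0.19 without 1 library. OsSAUR11 in APO was at -0.072 in deposited TPM of 12, -0.28 with the replicate block and from -0.50 to 1.57 without 1 library.

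The count of members called in APO drought (13) was 1 with all 12 libraries, 1 with all 12 and median-of-ratios scaling, 0 with APO control 3 alone left out, 4 in deposited TPM of 10 libraries, 0 in deposited TPM of 12, and 22 with library weights. Leaving out 1 library gave from 4 to 18. In IR64 drought (0) library weights gave 17 and the fit without IR64 control 3 gave 7. The cultivar difference (5) came to 0 with all 12 libraries under either scaling, with APO control 3 alone left out and in deposited TPM of 10 or 12 libraries, to 2 with median-of-ratios scaling, quantile normalization, a pseudocount of 0.1 or no filter, to 23 with library weights, and to between 0 and 14 without 1 library. Between cultivars in control (0) library weights gave 39 and the fit without IR64 control 3 gave 4. Between cultivars in drought (13) the count was 0 with all 12 libraries under either scaling, with APO control 3 alone left out and in deposited TPM of 10 or 12 libraries, 7 with the library labelled APO drought 1 alone left out, 8 with only the groups compared, and between 4 and 20 without 1 library.

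The APO median of Aux/IAA (-0.96) was -1.29 with APO control 3 alone left out, -1.39 and -1.16 with all 12 libraries (nuclear and median-of-ratios scaling), -1.51 and -1.37 in deposited TPM of 10 and 12, -1.55 with a mean of at least 5, -0.66 with median-of-ratios scaling, -0.33 with no filter, -0.59 with only the groups compared, -1.32 with a pseudocount of 0.1, -0.74 with quantile normalization, and from -1.45 to -0.96 without 1 library. The SAUR median (0.49) was -0.63 and -0.43 with all 12 libraries and -0.69 and -0.62 in deposited TPM. The GH3 median (1.19) was -0.19 with the library labelled APO drought 1 alone left out, -0.83 and -0.59 with all 12, -1.12 and -0.75 in deposited TPM, -0.055 with library weights and from -1.28 to 2.29 without 1 library. The ARF median (-0.75) was -1.14 in deposited TPM of 10 and from -1.17 to -0.55 without 1 library.

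In IR64 the Aux/IAA median (0.30) was -0.96 in deposited TPM and -0.19 with all 12 and median-of-ratios scaling. The SAUR median (-0.07) was -1.06 in deposited TPM. The GH3 median (0.02) was 0.38 with library weights, 0.86 with only the groups compared, 0.41 with quantile normalization and from 0 to 0.86 without 1 library. The ARF median (0.09) was -1.13 in deposited TPM, -0.43 and -0.39 with median-of-ratios scaling of 10 and 12, and -0.18 with quantile normalization. The GH3 median with a mean of at least 5 could not be had, since no GH3 gene passed. The cause of these shifts was not tested.

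The replicate numbers did not pair the libraries: correlations of the deviations of same-numbered libraries ran from -0.27 to 0.17. With the number as a replicate block the counts were 10 in APO, 0 in IR64, 5 for the cultivar difference, 0 in control and 12 in drought. With the block and all 12 libraries they were 1, 0, 0, 0 and 0, and the APO medians of Aux/IAA, SAUR and GH3 were -1.39, -0.63 and -0.83. Where 1 APO library was left in a group, it was assumed to vary like the other groups. The counts of those fits show no excess of members. The alternatives with median-of-ratios scaling of 12 libraries and those leaving out 1 of the 2 low libraries were added after seeing the data. With 2 APO libraries in each group and no read counts, low SAUR and GH3 levels carry no depth-based limit.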
